A study of Mus musculus with 6 samples.

Results

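The genes described here are those of the interleukins, of the receptors that bind them and of their soluble or decoy inhibitors. They were chosen by name: every gene symbol made of Il followed by a digit, which gave 83 of the 24422 genes in the count tables. Of these, 37 encode ligands, 38 receptor chains, 6 inhibitors and 2 neither (Il4i1, an amino acid oxidase, and the antisense transcript Il1bos). Fold changes are given for the 45 genes with at least 60 reads summed over the 6 libraries: 10 ligands, 31 receptor chains and 4 inhibitors. Just inside that minimum were Il1f5 with 72 reads, Il7r with 79 and Il2ra with 83, and just outside it were Il1f6 with 55, Il1a with 40, Il22ra2 with 36 and Il6 with 34.

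Poly-A RNA of whole kidneys was sequenced at postnatal day 13 from C57BL/6 mice on an iron sufficient diet with 220 ppm iron. The 3 Control kidneys carry a genotype labelled wild type. The 3 knockout kidneys, labelled TfR1KO;Six2Cre with the genotype Tfr1f/f;SixCre, have a floxed transferrin receptor 1 gene (Tfrc) and a Six2Cre recombinase that is active in nephron progenitors and not in the stroma, the ureteric bud or immune cells. The study describes nephron cells that had escaped deletion by this age. The labels do not say whether the libraries of a group came from separate litters, and the p-values measure the spread between these 6 samples. The comparison asks which interleukin family transcripts differ in a kidney whose nephrons form from progenitors with the iron receptor gene deleted.

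Interleukins are small secreted proteins that carry signals between immune cells, epithelia and stroma. Most act through receptors of several chains that work through Janus kinases and STAT factors, while IL-1, IL-18, IL-33 and the IL-36 proteins act through receptors that recruit Myd88 and turn on NF-kappaB. Other ligands use receptors of neither kind. IL-34 binds Csf1r, the receptor of macrophage colony-stimulating factor, the IL-17 proteins act through the adapter Act1, and IL-16 binds CD4. In the kidney, resident macrophages and injured tubule cells are known sources of IL-1 family proteins, and tubule cells are a known source of IL-34 and IL-15.

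Total counts ran from 16591156 to 22898008 per library. All values called normalized counts were divided by DESeq2 size factors, and differences are log2 fold changes of knockout over Control with their standard error (SE). A gene was called higher or lower at a DESeq2 adjusted p under 0.05. Tfrc itself (chromosome 16, 32609006 to 32632880, mm9) had 5534, 6485 and 3667 normalized counts in Control replicates 1 to 3 and 6976, 4045 and 5898 in the knockout replicates, a log2 fold change of 0.11 (SE 0.29, adjusted p 0.853), so this gene does not check the labels. Control replicate 3 stood apart from Control replicates 1 and 2: its summed proximal tubule markers were 44955 normalized counts against 99882 and 99286, and its summed stroma markers 99435 against 48689 and 46110. The groups were also unbalanced in the X-inactivation transcript Xist, which was at 16704 and 22092 normalized counts in Control replicates 1 and 3 and 27153 in knockout replicate 2, and at 78.2, 145 and 1031 in Control replicate 2 and knockout replicates 1 and 3. The Y-linked Ddx3y was at 1410, 1819 and 2347 in those last 3 libraries and at most 10.8 in the others, so that knockout replicate 3 held both transcripts. With Xist as a covariate, an alternative chosen after seeing the data, 9 members were higher and 1 lower. The share of all genes called with this covariate is not given here, so these counts cannot be set against it.

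Of the 45 genes, 8 were higher in knockout kidneys and 1 was lower, and 36 did not pass the test. The higher genes were the ligands Il34 and Il1b, the receptor chains Il10ra, Il18r1, Il6ra and Il5ra, and the inhibitors Il1rn and Il1r2. The lower gene was the ligand Il15. Among all genes with at least 60 reads, 8.2% were called higher and 7.63% lower by the same rule. All 8 higher genes changed by at least 2-fold, and Il15 did not reach that size. Of the 8, Il1b, Il1rn and Il1r2 reached 60 reads in the knockout libraries only, with 36, 32 and 23 reads in Control libraries. Il1r2 (225 reads in knockout libraries) would have stayed under the minimum had both groups held its Control reads, so its place in these counts is no support. The edgeR quasi-likelihood test called 6 of the 45 higher and 0 lower, where 3.22% of all such genes were higher and 2.8% lower; by DESeq2, 17 of the 45 had an unadjusted p under 0.05, as did 28.5% of all genes with at least 60 reads. Il5ra, Il1r2 and Il15 were the calls that edgeR did not make, with adjusted p of 0.0598, 0.0696 and 0.0564. The median log2 fold change of the 45 genes was 0.23 and 31 were above 0, whereas the median over all genes with at least 60 reads was 0.0088. Since whole kidneys were sequenced, fewer cells of a type and less RNA per cell cannot be told apart.

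**Figure D1:**
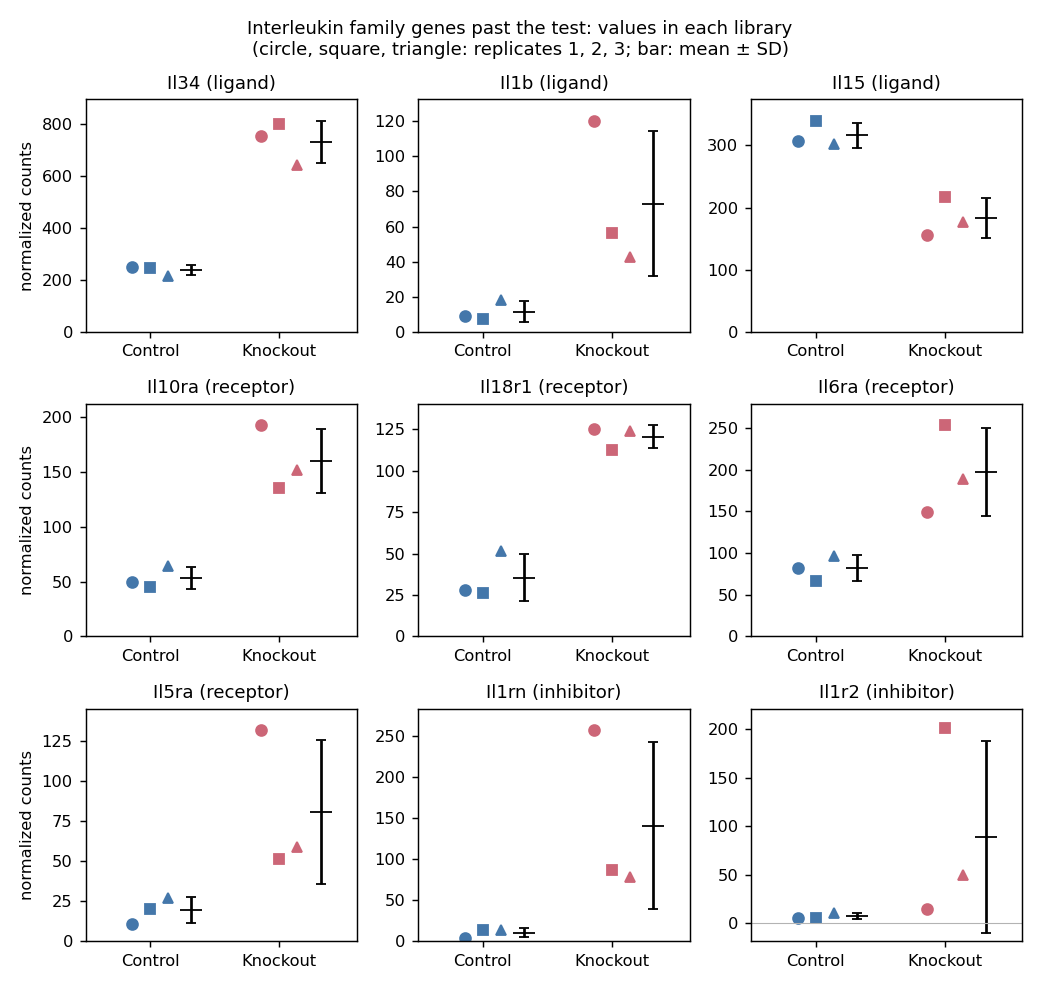
Normalized counts (y axes, one scale per gene) of the 9 interleukin family genes past the test in each Control and knockout library; circles, squares and triangles are replicates 1, 2 and 3, and bars are the mean ± SD of 3 libraries. The groups did not overlap for any of the 9 genes, which were chosen by a test on these same values. Of all genes with at least 60 reads, 17.3% had every knockout library above every Control library and 17.2% every one below. The wide bar of Il1r2, which reaches below 0, rests on 1 knockout library at 200.9.

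The ligands split in direction. With 2 of 10 higher and 1 lower, they had a median log2 fold change of -0.15, and 4 were above 0. Among all genes with at least 60 reads, 8.2% were higher and 7.63% lower by DESeq2.

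Il34 (chromosome 8, 113265729 to 113329824), the second ligand of Csf1r and a survival factor for macrophages, had the smallest adjusted p of the family. It measured 250.7, 244.5 and 215.3 normalized counts in the Control replicates and 753.8, 800.9 and 641.4 in the knockout replicates. The groups were far apart and each was tight, with means of 237 ± 18.9 and 732 ± 82.0 (SD, n = 3 each). On the log2 scale the rise was 1.63 (SE 0.19, DESeq2 adjusted p 8.80e-16, edgeR adjusted p 0.00389), and it stayed between 1.52 and 1.72 under every alternative run. By RPKM computed from the counts (reads per kilobase of exon, scaled to library depth), Il34 ranked 9th of the 45 genes in Control kidneys at 6.47 ± 0.31 and 3rd in knockout kidneys at 18.5 ± 1.35. Its exons overlap those of Gm15894 and Gm15895 on the other strand, and the strand setting of the counting is not given in the sources used here. The receptor gene Csf1r, which is not an interleukin gene, measured 983, 1153 and 1055 against 1382, 1140 and 1581 normalized counts (log2 fold change 0.36, adjusted p 0.199).

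Il1b (chromosome 2, 129190306 to 129196875) encodes the secreted inflammatory form of IL-1 that myeloid cells release after its precursor is cut. It measured 9.07, 7.27 and 18.3 normalized counts in the Control replicates and 120.3, 56.3 and 42.6 in the knockout replicates. Every knockout library was above every Control library, on counts of only 36 reads in Control and 210 in knockout libraries. The change was 2.68 on the log2 scale (SE 0.59, DESeq2 adjusted p 1.81e-04, edgeR adjusted p 0.038). Il1b overlaps Gm14047 on the other strand. The neighbouring Il1a, which encodes the form of IL-1 held inside cells, had only 9, 5 and 3 reads in the Control replicates and 17, 1 and 5 in the knockout replicates.

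Il15 (chromosome 8, 84855536 to 84927121), a ligand that sustains natural killer cells and memory T cells, was the lower member. Its values were 306.7, 339.9 and 302.5 normalized counts in the Control replicates and 155.1, 217.5 and 176.9 in the knockout replicates. The groups did not overlap, with means of 316 ± 20.5 and 183 ± 31.7. Its log2 fold change was -0.79 (SE 0.22, DESeq2 adjusted p 0.00412). The call was lost without Control replicate 1 (adjusted p 0.0667), Control replicate 2 (0.0984) or knockout replicate 3 (0.0663), although the log2 fold change stayed between -0.93 and -0.69 in all alternatives. Its rank by level per length was 5th in Control and 15th in knockout kidneys.

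Among the 7 ligands that did not pass, Il33, an alarm signal kept in the nuclei of stromal and endothelial cells, showed the widest Control spread. It measured 259, 190 and 730 normalized counts in Control replicates 1 to 3 and 599, 470 and 715 in the knockout replicates, so that Control replicate 3 was higher than any knockout library. Without Control replicate 3 its log2 fold change went from 0.60 (adjusted p 0.430) to 1.40 and passed the test (adjusted p 2.59e-05). Il11, a gp130 ligand, had a log2 fold change of 1.10 (SE 0.58, adjusted p 0.194) and Il17d, a distant IL-17 relative, one of -0.78 (SE 0.36, adjusted p 0.132). Il18, the partner of the IL-18 receptor, measured 21.4, 9.09 and 28.0 against 20.9, 15.4 and 12.3 normalized counts, with the groups overlapping. Il16, Il7 and Il1f9 had log2 fold changes from -0.40 to -0.04.

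Of the 31 receptor chains, 4 were higher and 0 were lower (edgeR 3 and 0). Their median log2 fold change was 0.23, and 24 were above 0; of all 15298 genes with at least 60 reads and an adjusted p, 7786 were above 0. By DESeq2, 10 of the 31 had an unadjusted p under 0.05, where the share over all genes with at least 60 reads was 28.5%. The calls stand beside 8.2% higher and 7.63% lower of all such genes (edgeR 3.22% and 2.8%).

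**Figure D2:**
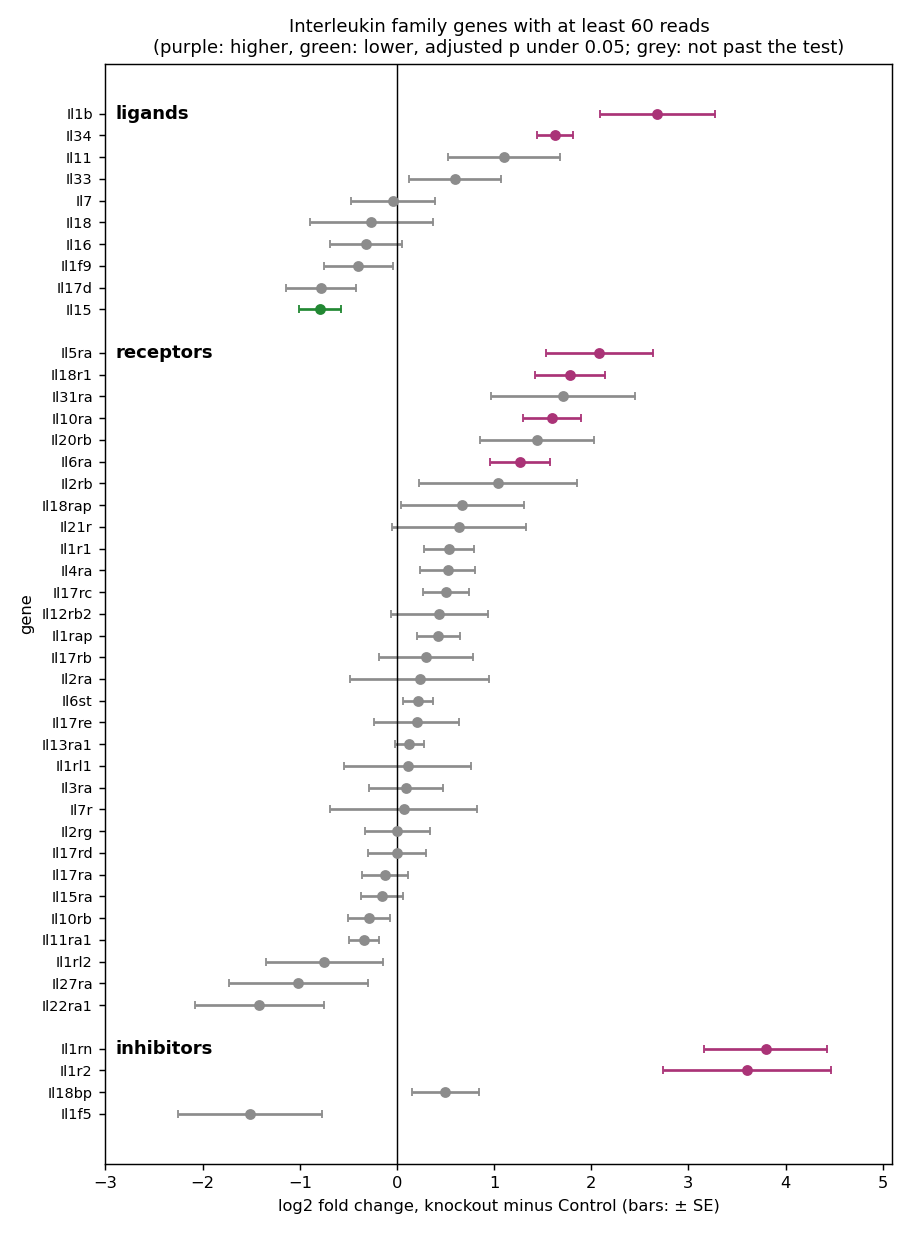
Log2 fold change of knockout over Control (x axis, bars ± SE) for the 45 interleukin family genes with at least 60 reads (y axis), ordered within ligands, receptors and inhibitors; purple marks higher, green lower and grey not past the test. The 8 purple genes lie at 1.27 or above, and Il15 is the green gene at -0.79.

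Il10ra (chromosome 9, 45061922 to 45077232) is the chain that binds IL-10, a signal that restrains macrophages, and is made mainly by blood cells. It measured 49.5, 45.4 and 64.6 normalized counts in the Control replicates and 192.9, 135.6 and 152.3 in the knockout replicates. All 3 knockout libraries were more than 2-fold above the highest Control library, and the log2 fold change was 1.60 (SE 0.30, DESeq2 adjusted p 3.64e-06, edgeR adjusted p 0.0233). Il10rb, the widely expressed partner chain, measured 907 ± 150 in Control and 743 ± 120 in knockout kidneys (log2 fold change -0.29, adjusted p 0.417). Il10 itself had 0, 0 and 2 reads in the Control replicates and 4, 6 and 2 in the knockout replicates, too few to test.

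Il18r1 (chromosome 1, 40522397 to 40557699) is the chain that binds IL-18. Its values were 28.0, 26.4 and 51.7 normalized counts in the Control replicates and 125.3, 112.6 and 123.9 in the knockout replicates. The knockout libraries lay close together, at 121 ± 6.98, and well above the Control libraries at 35.4 ± 14.2. Il18r1 had a log2 fold change of 1.78 (SE 0.36, DESeq2 adjusted p 2.48e-05, edgeR adjusted p 0.0302). Il18rap, the signalling partner chain, had a log2 fold change of 0.67 (SE 0.63, adjusted p 0.525) at 15.7 ± 10.8 and 24.7 ± 3.05 normalized counts. Il18bp, the soluble protein that neutralizes IL-18, had one of 0.50 (SE 0.35, adjusted p 0.363).

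Il6ra (chromosome 3, 89673246 to 89717084), the chain that binds IL-6, measured 82.5, 66.4 and 96.9 normalized counts in the Control replicates and 149.2, 253.3 and 189.2 in the knockout replicates. The groups did not overlap (log2 fold change 1.27, SE 0.31, DESeq2 adjusted p 8.54e-04, edgeR adjusted p 0.0468). Il6st, which encodes gp130, the signalling chain shared by the IL-6 family, had the highest level per length of the family in both groups, at 27.3 ± 2.93 in Control and 29.6 ± 5.16 in knockout kidneys. Its log2 fold change was 0.22 (SE 0.16, adjusted p 0.379). Il6 had 0, 0 and 2 reads in the Control replicates and 27, 1 and 4 in the knockout replicates, so that knockout replicate 1 held most of the reads and the test was not passed (adjusted p 0.113).

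Il5ra (chromosome 6, 106660378 to 106695103), the IL-5 receptor chain of eosinophils and some B cells, measured 10.7, 20.0 and 26.9 normalized counts in the Control replicates and 132.3, 51.2 and 58.6 in the knockout replicates. The groups did not overlap, but knockout replicate 1 was more than 2-fold above the others of its group. The log2 fold change was 2.08 (SE 0.55, DESeq2 adjusted p 0.00243), and neither edgeR (adjusted p 0.0598) nor limma-voom (adjusted p 0.0636) called it. Il5 had 18 reads over the Control libraries and 7 over the knockout libraries.

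The 27 receptor chains that did not pass included those at the highest levels. Il13ra1, which binds IL-13, and Il11ra1, which binds IL-11, ranked 2nd and 3rd by level per length in Control kidneys at 19.1 ± 0.67 and 17.2 ± 1.01. Their log2 fold changes were 0.13 (adjusted p 0.623) and -0.34 (adjusted p 0.126); Il11ra1 was called lower with size factors set to total counts (-0.45, adjusted p 0.0117). Its near-identical copy Il11ra2 was listed at 0 reads, and only uniquely aligned reads were counted, so that the split between the copies is uncertain. The IL-17 receptor chains Il17ra, Il17rb, Il17rc, Il17rd and Il17re had log2 fold changes from -0.12 to 0.50. The IL-4 receptor chain Il4ra measured 430, 417 and 757 normalized counts in the Control replicates and 850, 727 and 726 in the knockout replicates (log2 fold change 0.52, adjusted p 0.213).

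The chains of the IL-2 receptor group, which lymphocytes use, were at low counts except for the shared chain. Il2rg, the common gamma chain, measured 230 ± 69.9 in Control and 230 ± 64.8 in knockout kidneys (log2 fold change 0.0034, SE 0.33, adjusted p 0.997). Il2ra, Il2rb, Il7r and Il21r had Control means from 9.09 to 15.3 normalized counts and log2 fold changes from 0.07 to 1.04, with SE between 0.69 and 0.81, so that changes of 2-fold were not detectable at this depth. Il15ra, the chain that presents IL-15, was at 275 ± 44.7 and 249 ± 15.0 normalized counts (log2 fold change -0.15, SE 0.21, adjusted p 0.703), beside the lower Il15.

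A few receptor chains had large fold changes without passing. Il31ra, a partner of the oncostatin M receptor, had a log2 fold change of 1.71 (SE 0.74, adjusted p 0.104), and Il20rb, which serves the IL-20 group in epithelia, had one of 1.44 (SE 0.59, adjusted p 0.0773). Il20rb measured 35.5, 37.3 and 118 normalized counts in the Control replicates and 81.5, 273 and 165 in the knockout replicates. On the negative side were Il22ra1 at -1.42 (SE 0.66, adjusted p 0.138), Il27ra at -1.01 (SE 0.72, adjusted p 0.369) and Il1rl2, the IL-36 receptor, at -0.75 (SE 0.60, adjusted p 0.443). The sign of Il1rl2 rested on Control replicate 3, at 214 normalized counts against 54.4 and 51.8 in the other Control libraries, and without it the log2 fold change was 0.26. Without Control replicate 3, 13 members were higher instead of 8: Il33, Il4ra, Il1r1, Il20rb and Il31ra were added. The number of all genes called higher also changed with the library left out, so this rise cannot be read as particular to the members.

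Of the 4 inhibitors, 2 were higher by DESeq2, where 8.2% of all genes with at least 60 reads were. Il1rn and Il1r2 each reached 60 reads in the knockout libraries only. Il1r2 would have stayed under the minimum had both groups held its Control reads. Il1rn (chromosome 2, 24192373 to 24207014) encodes the receptor antagonist that occupies the IL-1 receptor without signalling. It measured 4.12, 13.6 and 12.9 normalized counts in the Control replicates and 257.6, 87.0 and 77.6 in the knockout replicates. The lowest knockout library was above every Control library by more than 2-fold, and knockout replicate 1 was the highest, as it was for Il1b. Il1rn had a log2 fold change of 3.80 (SE 0.63, DESeq2 adjusted p 1.32e-07, edgeR adjusted p 0.0235), and 3.03 (adjusted p 1.51e-05) without knockout replicate 1.

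Il1r2 (chromosome 1, 40141613 to 40182064) encodes the decoy receptor, which binds IL-1 and does not signal. It measured 5.77, 5.45 and 10.8 normalized counts in the Control replicates and 14.9, 200.9 and 50.1 in the knockout replicates. All knockout libraries were higher, but they spread over more than a factor of 10 and knockout replicate 2 carried most of the reads. The log2 fold change was 3.60 (SE 0.86, DESeq2 adjusted p 6.24e-04). Without knockout replicate 2 it was 2.17 and the call was lost (adjusted p 0.0695), and edgeR (adjusted p 0.0696) and limma-voom (adjusted p 0.149) did not make it. Knockout replicate 2 was also the library with the highest neutrophil marker sum, 829 against 232 and 569 in the other knockout libraries. S100a8 and S100a9, at 345 and 379 normalized counts there, made up most of that sum. Among the knockout libraries, Ly6g (1 read against 6 and 6) and Mpo were not highest in replicate 2, and the other neutrophil markers were. Replicate 2 was also the knockout library with high Xist. With Xist as a covariate the log2 fold change of Il1r2 was 3.33 (DESeq2 adjusted p 1.31e-04). The part of neutrophils in the result was not tested.

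Il1f5, the antagonist of the IL-36 receptor, measured 19.0, 19.1 and 11.8 normalized counts in the Control replicates and 8.95, 2.56 and 5.68 in the knockout replicates (log2 fold change -1.52, SE 0.74, adjusted p 0.160). Its groups did not overlap, but it did not pass. The 60-read minimum favours genes that are high in 1 group. Of the 45 genes, 9 had 60 reads in 1 group only: Il1b, Il1rn, Il1r2, Il11, Il18rap, Il21r and Il31ra in knockout and Il18 and Il22ra1 in Control libraries. Il1f5, Il1r2, Il22ra1 and Il31ra would have stayed under the minimum had both groups held the reads of their lower group.

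The signalling receptor of IL-1 can be set beside its ligands and inhibitors. Il1r1, the signalling chain, measured 401, 366 and 594 normalized counts in the Control replicates and 773, 569 and 627 in the knockout replicates, with overlapping groups (log2 fold change 0.53, SE 0.26, adjusted p 0.158). Il1rap, its accessory chain, measured 276, 248 and 352 against 357, 432 and 387, and the groups did not overlap (log2 fold change 0.43, SE 0.22, adjusted p 0.190). In all, 10 of the 45 genes had every knockout library above every Control library and 5 had every one below; over all genes with at least 60 reads these were 17.3% and 17.2%.

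Several members lie in clusters. The chromosome 1 cluster (40141613 to 40608550) holds Il1r2, Il1r1, Il1rl2, Il1rl1, Il18r1 and Il18rap in that order, with log2 fold changes of 3.60, 0.53, -0.75, 0.11, 1.78 and 0.67. The genes at positions 1 and 5 passed the test and the genes between them did not. Il1rl1, the IL-33 receptor, ends only 136 bases before Il18r1, and measured 27.2, 14.5 and 38.8 normalized counts against 43.8, 10.2 and 32.2. The chromosome 2 cluster (24008681 to 24207014) runs from Il1f8 over Il1f9, Il1f6, Il1f5 and Il1f10 to Il1rn. Il1rn passed the test there, as did Il1f6 at its low counts, while Il1f9 (-0.40) and Il1f5 (-1.52) did not.

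Stretches before the starts of Il1r2 and Il18r1 are shown because these were the called genes whose promoter window held the palindrome TTCNNNGAA, to which STAT factors bind (N is any base; it reads the same on both strands). Each is the 195 bases directly before a RefSeq start, read from the GRCm38.p6 promoter table and found once, unchanged, on chromosome 1 of mm9. The coordinates are chr1:40142743-40142937 for Il1r2 and chr1:40522656-40522850 for Il18r1, both on the plus strand and both after the earliest start that GENCODE gives the gene. Capitals mark the palindrome, which begins 111 bases before the start of Il1r2 and 152 bases before that of Il18r1. The full Il18r1 window held another palindrome farther from the start, outside the printed stretch, and the windows of the other RefSeq starts of Il18r1 held none.
Il1r2: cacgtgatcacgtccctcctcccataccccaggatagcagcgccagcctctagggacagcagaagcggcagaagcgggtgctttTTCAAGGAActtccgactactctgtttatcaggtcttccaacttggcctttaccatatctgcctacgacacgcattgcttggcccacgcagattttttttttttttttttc
Il18r1: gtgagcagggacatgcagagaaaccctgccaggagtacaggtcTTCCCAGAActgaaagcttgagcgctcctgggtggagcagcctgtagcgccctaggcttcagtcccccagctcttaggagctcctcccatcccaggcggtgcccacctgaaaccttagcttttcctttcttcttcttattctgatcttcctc

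Windows of 300 bases (250 before to 50 after a RefSeq start) were found for 37 of the 45 genes and for 6 of the 9 called genes. Il34, Il10ra and Il15 had no entry. The palindrome stood in a window of 8 of the 37 genes and 2 of the 6 called ones, and the kappaB consensus, to which NF-kappaB binds, in 6 and 0. Of all 27025 genes in the table, 9.55% held the palindrome in a window and 9.55% the kappaB consensus on either strand; counted by single windows, of which there were 32851, these were 8.30% and 8.46%. These matches are letters in a window and not measured sites.

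Of the 83 genes, 38 had fewer than 60 reads: 8 had none (Il11ra2, Il17a, Il17b, Il17f, Il20, Il22, Il3 and Il31) and 30 had 1 to 59. Only 7 of them received an adjusted p, and 2 were called higher. Of all 16509 genes with an adjusted p, 7.74% were called higher and 7.18% lower. Of those 16509 genes, 15298 had at least 60 reads, so these shares are not for genes with few reads. The 2 called genes, Il22ra2 and Il1f6, were tested only through their knockout reads. Their Control means of 0 and 0.94 normalized counts lie under 3.51, the lowest mean with an adjusted p. Il22ra2, the soluble IL-22 binding protein, had 0 reads in all Control libraries and 7, 9 and 20 in the knockout replicates. Set against a floor of 3 counts per Control library, its knockout mean lay at least 4.44-fold higher, a bound that covers counting error only (adjusted p 0.00128, DESeq2). Il1f6, the IL-36 alpha ligand, had 1 read in each Control library and 29, 5 and 18 in the knockout replicates (DESeq2 adjusted p 0.00439). Neither gene passed the low-count filter of edgeR, and neither received an adjusted p in each set of 5 libraries: Il22ra2 had none without knockout replicate 3, and Il1f6 none without knockout replicate 1. The T helper cytokine genes were at or near the floor: Il17a and Il17f had 0 reads in all, Il4 had 2 and Il13 had 7 over the 6 libraries.

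Genes that work beside the interleukin receptors were described with a list of 76, chosen with earlier results of these data known. Of the 75 with an adjusted p, 15 were higher and 2 lower, with a median log2 fold change of 0.48 (edgeR 9 and 0). Over all genes with an adjusted p, 7.74% were higher and 7.18% lower by DESeq2. By edgeR, 3.22% of genes with at least 60 reads were higher and 2.8% lower. Of the other cytokines and receptors of the gp130, thymic stromal and colony-stimulating families, 5 of 20 tested were higher and 1 lower by DESeq2, and 1 and 0 by edgeR, which kept the cytokine gene Clcf1 (edgeR adjusted p 0.0247). The 20 include Sigirr, an IL-1 receptor family gene outside these families, which did not pass (log2 fold change -0.70, SE 0.30, DESeq2 adjusted p 0.104). Lif, a gp130 ligand, measured 18.1, 27.3 and 11.8 normalized counts in the Control replicates and 310, 35.8 and 102 in the knockout replicates (log2 fold change 2.97, SE 0.71, adjusted p 6.33e-04, edgeR 0.0682). Osm, the oncostatin M ligand, had 1, 1 and 0 reads in the Control replicates and 57, 19 and 6 in the knockout replicates (adjusted p 0.00108, not tested by edgeR), with knockout replicate 1 highest for both ligands. The Control mean of Osm, 0.58 normalized counts, lies under 3.51, the lowest mean with an adjusted p. Osm was therefore tested only through its knockout reads, and its place in these counts is no support. Osmr, its receptor, measured 225, 218 and 636 against 1073, 1267 and 1083 (log2 fold change 1.67, SE 0.41, adjusted p 0.00109, edgeR 0.0595). Csf2rb, a receptor chain of the colony-stimulating family, was higher by DESeq2 and not by edgeR (log2 fold change 1.04, SE 0.37, adjusted p 0.0390, edgeR 0.127). Cntfr, the binding chain for ciliary neurotrophic factor, was lower (-0.70, SE 0.24, adjusted p 0.0274, edgeR 0.0945).

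**Figure D3:**
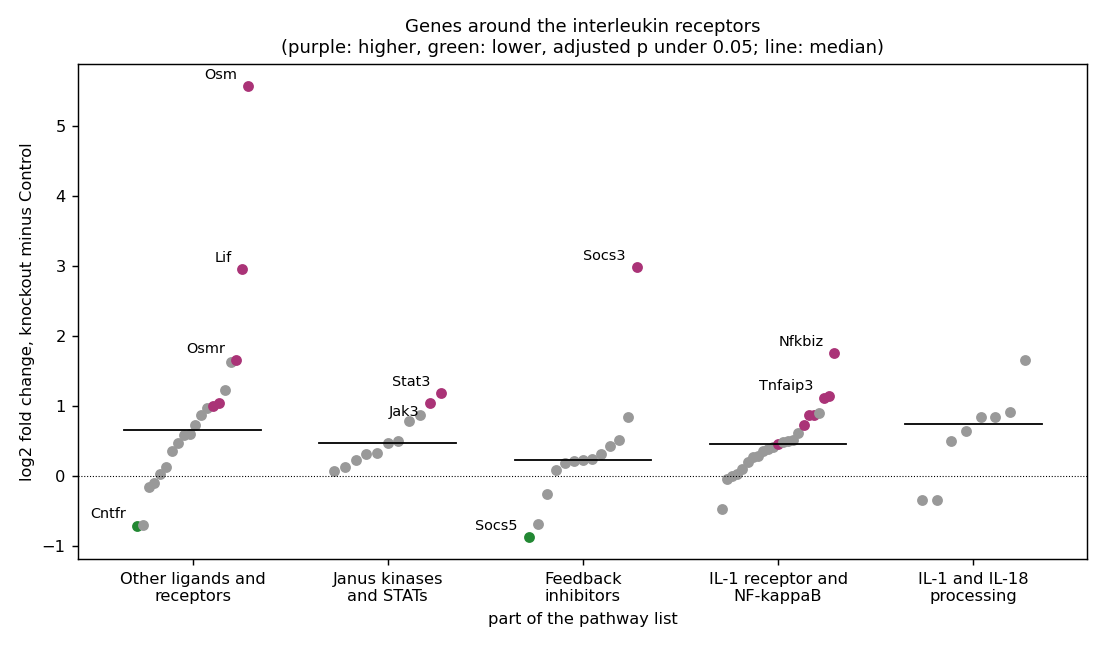
Fitted log2 fold change of knockout over Control (y axis) for the 75 tested genes that work beside the interleukin receptors, by part of the list (x axis); each point is a gene, purple is higher, green lower and grey not past the test, and lines are medians. Osm, Lif and Socs3 stand highest, of which Osm was tested only through its knockout reads, and Cntfr and Socs5 are the 2 lower genes.

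Of the 11 Janus kinases and STAT factors, Stat3 and Jak3 were higher and none was lower. Stat3, the main STAT factor of gp130 receptors, measured 2079, 2271 and 2118 normalized counts in the Control replicates and 4798, 5281 and 4646 in the knockout replicates (log2 fold change 1.19, SE 0.14, adjusted p 1.28e-15). The gap between its groups was many times the spread within either. Of the 13 feedback inhibitors, Socs3, which shuts off gp130 signalling, was higher at 91.5, 84.5 and 193 against 1969, 573 and 388 (log2 fold change 2.99, SE 0.58, adjusted p 9.64e-06), and Socs5 was lower (-0.86, SE 0.27, adjusted p 0.0168, edgeR 0.0801). Of 23 genes of IL-1 receptor and NF-kappaB signalling, 7 were higher and 0 lower (edgeR 5 and 0), where 8.2% of all genes with at least 60 reads were higher by DESeq2. Of the 23, 12 had a DESeq2 unadjusted p under 0.05, beside 28.5% of all genes with at least 60 reads. The 7 higher genes were the adapter Myd88, the kinase Chuk, the subunits Nfkb2 and Relb, the inhibitors Nfkbia and Tnfaip3, and Nfkbiz. The largest of these was Nfkbiz (log2 fold change 1.76, SE 0.30, adjusted p 2.30e-07). None of the 8 genes that process IL-1 and IL-18 precursors passed in either direction by DESeq2 or edgeR (1 with an unadjusted p under 0.05 by DESeq2).

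Markers of the cells that a whole kidney holds moved with the groups too. Of 13 macrophage markers, 8 were higher and 0 lower (edgeR 6 and 0). Of all genes with at least 60 reads, 8.2% were higher by DESeq2 and 3.22% by edgeR. Summed normalized counts of the macrophage markers ran from 3050 to 5195 in Control and from 6973 to 10870 in knockout libraries, with no overlap. Lyz2, the macrophage lysozyme gene, measured 508, 472 and 916 against 2791, 1826 and 2044. Csf1r, Adgre1, Mrc1, Cx3cr1 and Aif1 were the macrophage markers that did not pass, and none of the 13 was at 0. The part of these cells in the values of Il10ra, Il1b and Il1rn was not tested.

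Of 7 neutrophil markers, S100a8 and S100a9 were higher by DESeq2 and none by edgeR (adjusted p 0.119 and 0.118), their groups overlapped, and the sum ran from 77.5 to 358 in Control and from 232 to 829 in knockout libraries. Of 8 T cell markers, Lck was higher by DESeq2 and not by edgeR (adjusted p 0.0896), and 5 of the 8 had means under 10 normalized counts. The list had a median log2 fold change of -0.80. Lck (0.87) and Cd4 (0.19) were above 0 and the other T cell markers below. Cd8a (-1.64) and Cd28 (-2.45) were lower in every knockout library without passing. The T cell sums of 151 to 221 and 210 to 233 overlapped. Of 5 B cell markers 1 was lower (Ms4a1, which edgeR did not test), and the sums were 97.3 to 169 in Control and 57.6 to 95.5 in knockout libraries. All 5 natural killer markers had means under 10. Mast cell (6) and dendritic cell (5) markers had 0 calls by DESeq2 or edgeR, with sums of 126 to 178 against 51.2 to 262 and of 262 to 552 against 372 to 398.

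The tubule markers of the labelled tissue were all detected, with none at 0. Of the markers of the thick ascending limb, 3 of 4 were lower (edgeR 2), with sums of 42940 to 87957 in Control and 11666 to 23490 in knockout libraries. The shares over all genes with at least 60 reads were 8.2% higher and 7.63% lower by DESeq2 (edgeR 3.22% and 2.8%). Of 6 proximal tubule markers 3 were lower and 1 higher (edgeR 1 and 1), and of 4 podocyte markers 1 was higher by both tools. Of 5 collecting duct markers 2 were higher and 1 lower (edgeR 1 and 0). Their log2 fold changes were 2.74 for Aqp2, 1.02 for Aqp3, 0.23 for Scnn1g, 0.13 for Avpr2 and -0.60 for Atp6v1b1. Aqp2 made up most of the collecting duct sum in each knockout library. Of 5 stroma markers 1 was lower (edgeR 0), and of 5 endothelial markers 0 were called by DESeq2 or edgeR. The part of these shifts in the lower Il15 and the higher Il34 was not tested.

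**Figure D4:**
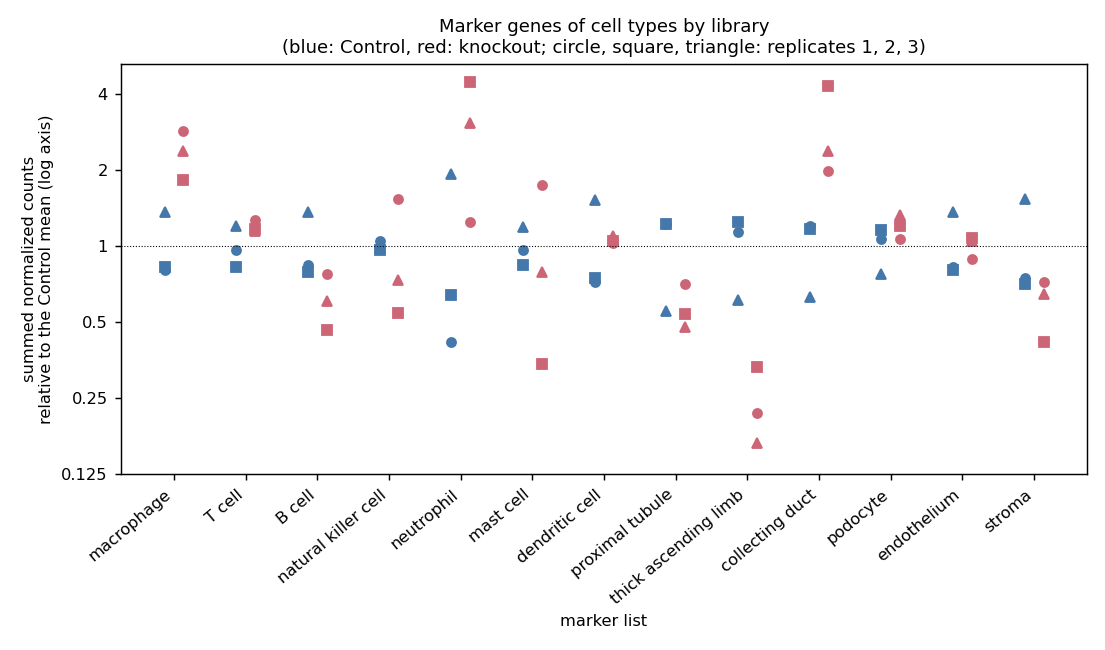
Summed normalized counts of each cell type marker list (x axis) relative to the Control mean of that list (y axis, log scale) in each library; blue is Control and red knockout, and circles, squares and triangles are replicates 1, 2 and 3. The macrophage and collecting duct sums are higher and the B cell and thick ascending limb sums lower in all knockout libraries, and the other lists overlap. Aqp2 makes up most of the collecting duct sum in each knockout library.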

How the data were processed

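Poly-A libraries (TruSeq) were sequenced as single-end reads on a HiSeq2000. Per the labels and the study's methods, the authors ran CASAVA 1.8.2, trimmed reads with Trimmomatic (end quality 10, at least 30 bases), aligned them with TopHat2 2.0.11 to mm9, kept unique alignments and deposited raw counts per gene from HTSeq, without normalization. The strand setting and annotation are not given in the sources used here; exons of 9 of the 45 genes overlap another gene, and reads of opposite strands may then not be told apart. Unique counting leaves out reads shared by near-identical copies.

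The interleukin genes and all lists were chosen with earlier results of these data known. Il1f5 was moved from ligands to inhibitors after the files were read. Genes were named by a rule on reads and adjusted p: members past the test are given in every library, the others by counts and ranges or where a ligand and receptor pair needs them, and at most 6 pathway genes are given in each direction with values.

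Counts of all 24422 genes were tested with DESeq2 1.42.0 in R 4.3.3 (Wald test, no covariate, median-ratio size factors, Benjamini-Hochberg adjustment, independent filtering at 0.05), as the study names DESeq2. An adjusted p was given to 16509 genes, down to a mean of 3.51 counts; outlier filtering removed 29. Alternatives were edgeR 4.0.16 (quasi-likelihood, TMM), voom in limma 3.58.1, TMM and total-count size factors, other filters, a 2-fold threshold, read minimums of 30 and 120, the replicate number as a block, leaving out each library and, added later, Xist as a covariate. The code was tested on simulated data, where DESeq2 made false calls well above its nominal share and edgeR and voom, which recovered fewer changed genes, came nearer to it; edgeR results are therefore given beside those of DESeq2. Positions and exon lengths came from GENCODE vM1 (mm9) for 82 of the 83 genes, and promoter windows from RefSeq (GRCm38.p6). Depth was 16591156 to 22898008 counts per library, and the small number of libraries, 3 in each group, bounds the precision.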

Additional observations from a re-analysis of the deposited data

How the results depend on the processing

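The calls of Il34, Il1b, Il10ra, Il18r1, Il6ra and Il1rn were kept under every alternative run. With edgeR 493 genes were higher and 428 lower over all genes, with 0 members lower and 9 pathway genes higher and 0 lower; limma-voom gave 485 and 456, and 9 and 0 pathway genes. At 2-fold the counts were 728 and 736, with 0 members and 0 pathway genes lower. Total-count size factors, which moved the median of all genes by -0.10, gave 2 lower members (Il15 and Il11ra1). Leaving out 1 library gave 664 to 1531 higher and 575 to 1674 lower genes, 7 to 13 higher and 0 to 1 lower members, and 12 to 21 higher and 0 to 4 lower pathway genes; the lowest counts of all genes came without Control replicate 1, and the highest without knockout replicate 1. The causes were not tested, beyond fewer samples.

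The replicate numbers did not pair the samples (same-number correlations of -0.0378, 0.0548 and 0.0899), and the labels tie them to nothing shared. The replicate block gave 10 higher members (adding Il20rb and Il33) and 1 lower, 1085 and 1087 genes over all, and 14 and 2 pathway genes.

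Signs turned for members that were not called, from Il17rd near 0 to Il1rl2 at -0.75. With all libraries these were Il17rd (edgeR -0.017, voom -0.045, TMM factors -0.024, total counts -0.13, genes with 60 reads only -0.0015, block -0.027), Il2rg (edgeR -0.0099, TMM factors -0.013, total counts -0.090, block -0.0026, Xist covariate -0.031), Il3ra (voom -0.011, block -0.017, Xist covariate -0.078), Il17rb (Xist covariate -0.0046), Il1rl1 (block -0.0029), Il2ra (voom -0.018), Il7 (block 0.0059) and Il7r (total counts -0.034). With 1 library left out the log2 fold changes ran from -0.60 to 0.044 for Il16, -0.53 to 0.62 for Il17rb, -0.24 to 0.21 for Il17rd, -0.26 to 0.44 for Il17re, -0.61 to 0.076 for Il18, -0.32 to 0.51 for Il1rl1, -1.09 to 0.26 for Il1rl2, -0.38 to 0.64 for Il2ra, -0.15 to 0.28 for Il2rg, -0.31 to 0.39 for Il3ra, -0.25 to 0.088 for Il7 and -0.49 to 0.64 for Il7r. With 3 libraries per group and genes such as Il1b at 36 Control reads, counting error and spread limit the low members.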
